A study of Mus musculus with 18 samples.

Results

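The transcripts examined here encode 10 secreted growth, angiogenic and repair factors, namely Vegfa, Vegfb, Hgf, Areg, Igf1, Hbegf, Thbs1, Fn1, Anxa1 and Anxa2. They were chosen by name, as factors linked to blood vessel growth, tissue repair and matrix, from the 54446 genes of the deposited table. Each was followed in 18 libraries of mouse eosinophils cultured with apoptotic cells (ACs), and each stimulus was compared with the ACs libraries of its own experiment.

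The study asked how apoptotic cells shape the response of eosinophils to Type 1 stimuli (IFN-γ and bacteria) and to the Type 2 cytokine IL-4. There were 6 groups of 3 libraries. In the Type 1 experiment the eosinophils received ACs only, or ACs with E. coli, with IFN-γ or with both, and in the IL-4 experiment ACs only, or ACs with IL-4. All samples were labelled as eosinophils of C57BL/6 mice. By the study's methods they came from the peritoneal cavity of NJ.1638 Il5Tg mice, in which an Il5 transgene expands eosinophils, and were enriched by removing Thy1.2+ and B220+ cells. As ACs, wild-type thymocytes that had been treated with dexamethasone were added at 5 per eosinophil for 18 h, and Siglec-F+ cells were recovered on beads afterwards for RNA. The controls therefore also carry the Il5 transgene and have also met ACs. Eosinophils cultured without ACs are not analysed here. The study's methods speak of 3 biological replicates, and the labels do not tie a library to a mouse, so the p-values below measure the spread between these libraries.

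The libraries, made by the 3′-end method CEL-Seq2, held 779421 to 7782072 reads counted on genes. The shallowest were both libraries numbered 3 in the IL-4 experiment, where 3 reads stand for a normalized count of 15.42 and 16.08. Of the eosinophil markers, Siglecf ranged from 1510 to 3370 and Ccr3 from 2620 to 4930. Epx and Prg3, which encode granule proteins, did not exceed 25.7 and 26.8, while Prg2 ranged from 57.5 to 270 and Ear6 from 336 to 8690. The summed count of all 10 eosinophil markers was lowest with IFN-γ (10000 to 11300, against 16300 to 17800 with ACs). Alox15 was the largest part of it in both groups, at a mean of 5460 with IFN-γ and 9410 with ACs. The 12 thymocyte markers summed to 91.9 to 127 with ACs, 123 to 175 with E. coli and 38.6 to 105 with IFN-γ or both in the Type 1 experiment, and to 16.1 to 61.7 in the IL-4 experiment. Rag1, Rag2 and Dntt were each under 3 reads in 17 of 18 libraries, and Cd4 and Lck were highest, at up to 40.9 and 64.2. The 5 B cell markers, mostly Ighm, summed to 901 to 1040 with ACs in the Type 1 experiment, 307 to 317 with E. coli, 97.6 to 179 with IFN-γ and 151 to 172 with both, and to 349 to 571 in the IL-4 experiment. All 12 markers of peritoneal macrophages were detected, and their summed normalized count was 17400 to 22900 in the ACs libraries of the Type 1 experiment, 8230 to 10800 with E. coli, 28800 to 38900 with IFN-γ and 9750 to 10500 with both. It was 26500 to 40200 in the ACs libraries of the IL-4 experiment and 20500 to 35700 with IL-4. In such bulk samples, fewer cells of a type and less RNA per cell cannot be told apart.

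The 10 factors act in different ways. VEGF-A and VEGF-B bind receptor tyrosine kinases on blood vessels, with neuropilins as co-receptors, and VEGF-A is the principal driver of vessel sprouting. HGF signals through Met, IGF-1 through Igf1r, and amphiregulin (Areg) and HB-EGF (Hbegf) are membrane-bound ligands of the EGF receptor that are cut loose by ADAM proteases. Thrombospondin-1 (Thbs1) is a matricellular protein that restrains angiogenesis and binds CD36 and CD47, and fibronectin (Fn1) is a matrix protein bound by integrins. Annexin A1 (Anxa1) limits inflammation through formyl peptide receptors, and annexin A2 (Anxa2), with its partner S100A10, binds plasminogen and its activators at the cell surface. Eosinophils are known as a source of several of these factors in healing tissue.

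In GRCm38 the genes are protein-coding and lie on 8 chromosomes. Vegfa (ENSMUSG00000023951.17) lies on chromosome 17 from 46016993 to 46032369, on the minus strand, and Vegfb on chromosome 19 from 6982473 to 6987651. Thbs1 (ENSMUSG00000040152.8) lies on chromosome 2 from 118111876 to 118127133 and Fn1 (ENSMUSG00000026193.15) on chromosome 1 from 71585520 to 71653200. Anxa1 lies on chromosome 19 from 20373428 to 20390944, Anxa2 on chromosome 9 from 69453620 to 69491795, Igf1 on chromosome 10 from 87858265 to 87937042 and Hgf on chromosome 5 from 16553495 to 16620152. Areg lies on chromosome 5 from 91139599 to 91148432. The upstream sequences of 3 members are shown for comparison, because Vegfa and Vegfb encode related ligands of which one passed the tests below and the other did not, and because Anxa2 changed in opposite directions with E. coli and with IFN-γ. They are RefSeq promoter windows of GRCm38.p6, read 5′ to 3′ on the strand of the gene, and end before the gene's first annotated base.
Vegfa, chr17:46032378-46032627, minus strand: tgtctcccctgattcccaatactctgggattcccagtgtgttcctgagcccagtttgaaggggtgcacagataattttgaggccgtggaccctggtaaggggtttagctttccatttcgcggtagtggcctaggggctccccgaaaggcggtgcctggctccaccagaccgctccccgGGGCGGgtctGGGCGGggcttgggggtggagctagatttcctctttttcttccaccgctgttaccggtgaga
Vegfb, chr19:6987652-6987901, minus strand: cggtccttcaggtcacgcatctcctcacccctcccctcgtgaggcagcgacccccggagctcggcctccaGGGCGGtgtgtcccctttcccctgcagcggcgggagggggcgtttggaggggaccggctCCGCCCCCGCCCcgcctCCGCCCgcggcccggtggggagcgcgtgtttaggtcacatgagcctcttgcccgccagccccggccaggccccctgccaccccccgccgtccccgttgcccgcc
Anxa2, chr9:69453433-69453619, plus strand: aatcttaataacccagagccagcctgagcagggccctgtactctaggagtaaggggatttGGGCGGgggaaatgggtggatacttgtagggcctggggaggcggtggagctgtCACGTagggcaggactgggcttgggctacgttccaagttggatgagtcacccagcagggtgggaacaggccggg
Capitals mark the letters GGGCGG, the core of a GC box, and ACGTG, the core of a hypoxia response element, each on either strand. Vegfa holds GGGCGG starting 72 and 62 bases before the start, Vegfb holds 4 such matches of which a pair adjoin, and the stretch of Anxa2 holds GGGCGG 190 bases and ACGTG 137 bases before its start. Distances are counted from the RefSeq start, which for Anxa2 (69453683) lies downstream of the start in the annotation above, and the 63 bases between them are not printed. A second RefSeq start of Vegfa lies inside the gene, and its window, also not printed, holds ACGTG 211 bases and GGGCGG 158 bases before that start. Among 32851 RefSeq windows of 250 bases, 32.7% held GGGCGG and 16.6% held ACGTG. The STAT motif TTCNNNGAA, and the form of it with a spacer of 4 bases that STAT6 prefers, were in 7.02% and 5.85% of windows. Neither was in any of the 9 windows examined, which belong to 7 members. No window of Hbegf, Thbs1 or Fn1 was examined. A match describes the letters only, and the absence of one says nothing beyond the window.

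Values are the authors' normalized counts, which are reads on a gene divided by a size factor of the library. Differences were fitted with limma on log2(normalized count + 1) over all genes with a mean of at least 10, and a fold change on this scale understates that of low genes. Transcripts passed where the p adjusted by Benjamini-Hochberg was under 0.05 and the fold change reached 1.5. Areg was not tested in any comparison and Hbegf was not tested in the Type 1 experiment, as their counts were too low, so 8 members were tested there and 9 with IL-4. With E. coli, 1 member rose (Thbs1) and 3 fell (Fn1, Anxa1 and Anxa2), where 5.05% of all tested genes rose and 5.25% fell. With IFN-γ, 4 rose (Vegfa, Igf1, Thbs1 and Anxa2) and 1 fell (Anxa1), against 11.4% and 9.96% of all tested genes. With both, 2 rose (Vegfa and Thbs1) and 2 fell (Fn1 and Anxa1), against 14.7% and 17.2%. When the libraries were brought to a common upper quartile, the median of all genes moved by -0.14 on the log2 scale for this last comparison, and 1155 genes rose and 2200 fell in place of 1494 and 1746. With IL-4, 2 rose (Igf1 and Hbegf) and none of the 9 fell, against 0.74% and 0.347% of all tested genes. The median log2 fold change of the members was -0.22 with E. coli, 0.54 with IFN-γ, -0.29 with both and 0.03 with IL-4, and that of all tested genes was between -0.05 and 0.

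**Figure D1:**
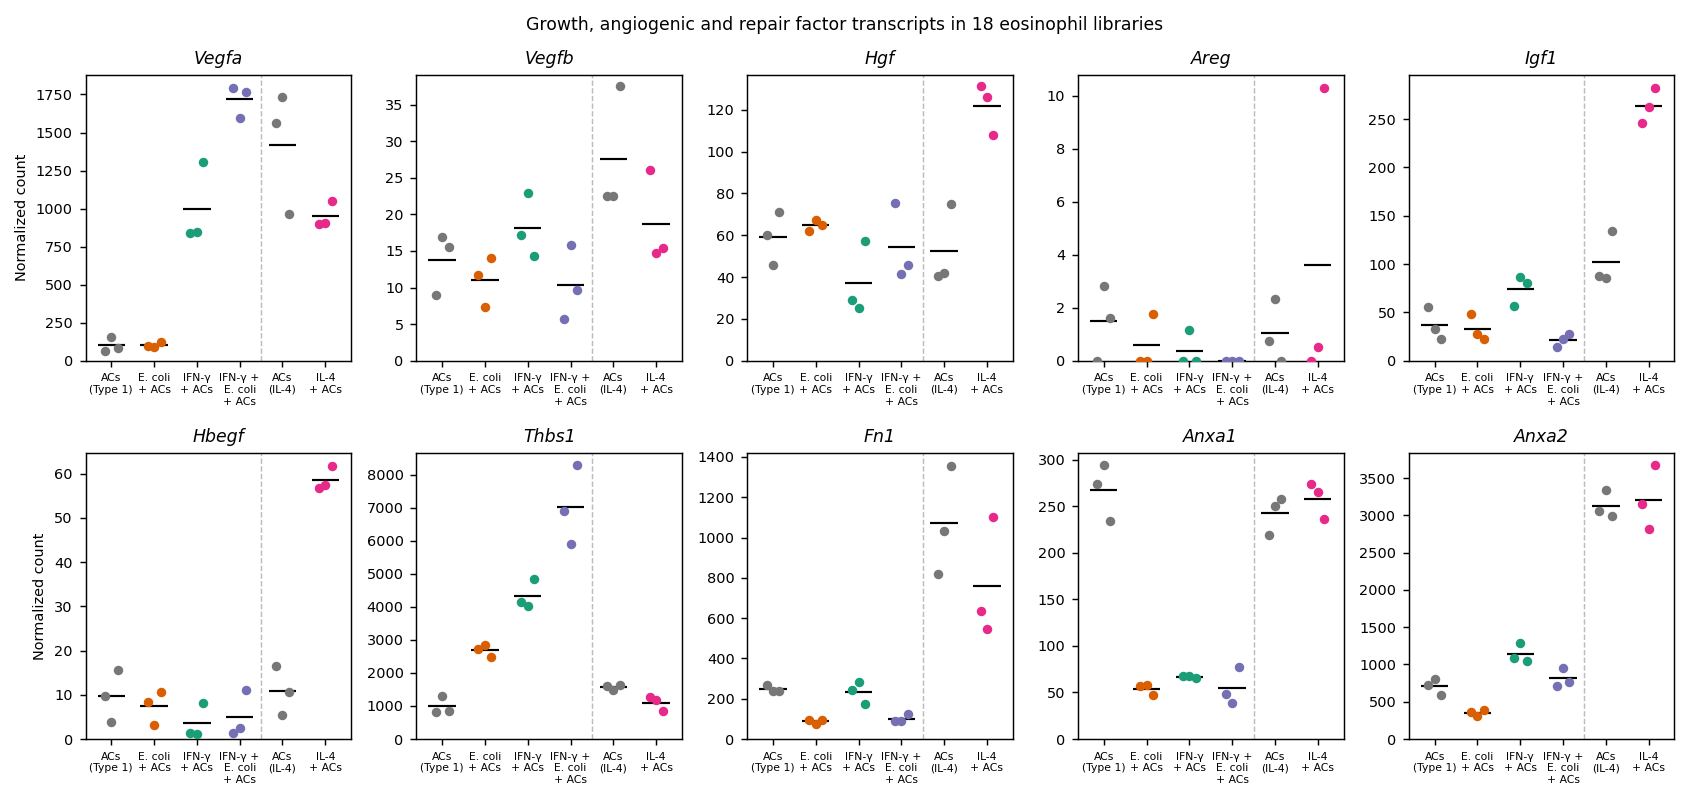
Normalized count (y axis, linear from 0) of each of the 10 transcripts in the 6 groups (x axis), with a point per library, replicates 1 to 3 from left to right, and a black bar at the group mean. The dashed line parts the Type 1 experiment from the IL-4 experiment. The 3 libraries with both IFN-γ and E. coli hold between 1595 and 1795 for Vegfa, and the libraries with IL-4 hold between 56.8 and 61.7 for Hbegf.

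**Figure D2:**
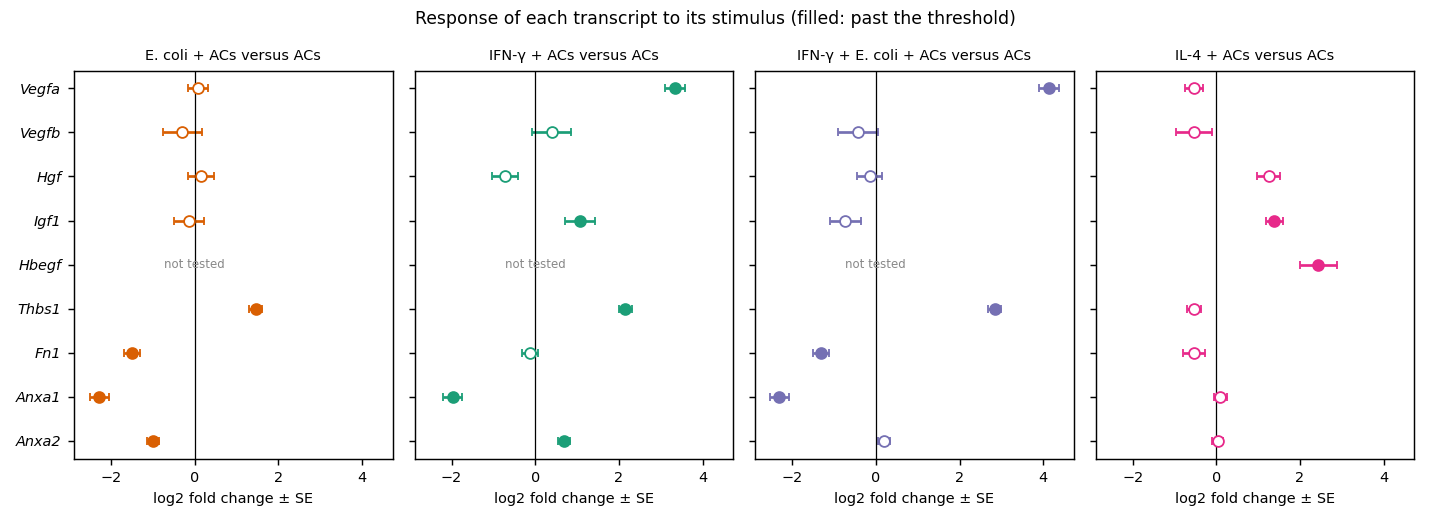
Log2 fold change (x axis) with its standard error for the 9 members tested in any comparison (y axis), in a panel per stimulus. Filled points passed the threshold. Thbs1 is above 0 and Anxa1 below 0 in each of the 3 Type 1 panels, and in the IL-4 panel only Igf1 and Hbegf are filled.

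Vegfa was the member with the widest response to IFN-γ. Its normalized counts were 66.7, 157.7 and 84.0 with ACs alone, 94.6, 89.1 and 124.9 with E. coli, 840.2, 845.9 and 1303 with IFN-γ, and 1795, 1595 and 1769 with both. The libraries with IFN-γ all lay far above those without it, whether or not E. coli was present, while the E. coli libraries lay within the range of ACs alone. Vegfa rose 10.1-fold with IFN-γ (log2 fold change 3.33, SE 0.24, adjusted p = 3.8e-09) and 17.7-fold with both (log2 fold change 4.15, adjusted p = 1e-10), and with E. coli its log2 fold change was 0.08 (SE 0.24, adjusted p = 0.88). The groups with IFN-γ alone and with both did not overlap either. In the IL-4 experiment Vegfa was already high with ACs alone, at 1564, 1731 and 965.1, and was 900.9, 905.8 and 1049 with IL-4. These groups overlapped through the ACs library numbered 3, one of the shallow ones, and the log2 fold change of -0.54 did not pass (adjusted p = 0.43). Without that ACs library it was -0.79 (adjusted p = 0.023), and without both libraries numbered 3 it was -0.86 (adjusted p = 0.0003).

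Vegfb stayed low throughout, between 5.70 and 22.9 across the Type 1 libraries and between 14.8 and 37.5 across the others, or 3 to 45 reads. Its groups overlapped in all 4 comparisons and its adjusted p ranged from 0.5 to 0.77. Of the other VEGF ligands and receptors, 8 genes of the table, only 3 were tested. Nrp2, a neuropilin co-receptor, rose with each Type 1 stimulus, from 47.8 ± 9.23 (SD, n = 3) with ACs to 289 ± 38.8 with IFN-γ (log2 fold change 2.58, adjusted p = 3.3e-07) and 256 ± 64.0 with both. With E. coli the log2 fold change of Nrp2 was 1.04 (adjusted p = 0.0097), and with IL-4 it was -0.09. Flt1, a VEGF receptor, was low in the Type 1 experiment, at 7.32 to 16.9 with ACs, and fell to between 0 and 4.28 with both (adjusted p = 0.0055). With IFN-γ it was 17.15 to 41.0 and did not pass (log2 fold change 1.12, adjusted p = 0.26). In the IL-4 experiment Flt1 was 36.0 to 79.0 with IL-4 against 3.11 to 21.45 with ACs. These groups lay apart, but the log2 fold change of 2.39 did not pass (adjusted p = 0.18).

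The list of other angiogenic factors and oxygen-sensing genes had 5 tested members of 14. In the Type 1 experiment 2 rose and 1 fell with E. coli, 3 rose with IFN-γ, and 3 rose and 1 fell with both. Of all tested genes 5.05%, 11.4% and 14.7% rose and 5.25%, 9.96% and 17.2% fell, in the same order. None of 5 passed with IL-4, where 0.74% of all tested genes rose and 0.347% fell. Hif1a, which encodes the oxygen-regulated subunit of HIF-1, rose from 659 ± 68.4 with ACs to 1200 ± 39.9 with E. coli, 1010 ± 141 with IFN-γ and 1850 ± 334 with both (log2 fold changes 0.87, 0.61 and 1.48). Epas1, which encodes the related HIF-2α, was 118 ± 5.31 with ACs and fell to 37.4 ± 11.9 with E. coli and 12.5 ± 6.23 with both (log2 fold changes -1.67 and -3.24), and was 80.4 ± 24.4 with IFN-γ. Adm, which encodes the vasodilator peptide adrenomedullin, was at most 0.94 with ACs alone and 26.4 to 45.9 with IFN-γ in the Type 1 experiment. Its mean was 2.82 with E. coli and 34.7 with both. Adm reached the mean of 10 needed for a test only through the groups with IFN-γ. It is counted above among the genes that rose with IFN-γ and with both, but as a description only. In the IL-4 experiment it was far higher, at 241 to 308 with ACs alone and 118 to 236 with IL-4. Hif1a and Adm, like the other genes of short lists given here, were named after their values were seen.

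Hgf was higher in every IL-4 library than in any ACs library, but whether it passed depended on the method. It was 131.5, 125.9 and 107.9 with IL-4 against 40.6, 42.0 and 75.1 with ACs. The log2 fold change was 1.25 and missed the threshold with limma (adjusted p = 0.087). It was 1.46 with edgeR (adjusted p = 0.0032) and 1.40 with DESeq2 (adjusted p = 0.0017) on the recovered reads, and 1.53 without the ACs library numbered 3 (adjusted p = 0.012). In the Type 1 experiment Hgf lay between 25.2 and 75.6 in all 12 libraries, its groups overlapped in each comparison, and none passed. The log2 fold change with IFN-γ was -0.72 (adjusted p = 0.088), and without the IFN-γ library numbered 3 it was -1.08 (adjusted p = 0.011).

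The receptor side of the HGF system did change with the Type 1 stimuli. The 7 listed genes are the receptor, proteases around activation of the ligand, the urokinase receptor and protease inhibitors. Of the 4 tested (Met, Plaur, St14 and the inhibitor Spint2), 3 rose with E. coli, 2 with IFN-γ and 3 with both, and none fell. Of all tested genes 5.05%, 11.4% and 14.7% rose, in the same order. Met, the HGF receptor, was 59.2 ± 8.57 with ACs and rose to 229 ± 9.66 with E. coli (log2 fold change 1.94, adjusted p = 2.1e-05) and 210 ± 87.5 with both. Plaur, the urokinase receptor, rose 2.5-fold with E. coli (log2 fold change 1.32, adjusted p = 1.1e-05), and the membrane protease gene St14 had log2 fold changes of 1.08 with E. coli and 1.12 with both. None of these 4 passed with IL-4, where 0.74% of all tested genes rose and 0.347% fell. Met was 0 to 23.7 with IL-4 against 44.4 to 69.7 with ACs, apart and lower. Its log2 fold change of -2.81 (SE 1.02) did not pass (adjusted p = 0.41).

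Igf1 rose with IL-4, from 87.2, 85.6 and 134.0 to 245.7, 262.9 and 282.7, with no overlap. The log2 fold change was 1.39 (SE 0.21, adjusted p = 0.014). It kept an adjusted p under 0.05 with edgeR, with DESeq2 and without both shallow libraries, but with any single library left out other than the ACs library numbered 3 the adjusted p was 0.055 to 0.071. In the Type 1 experiment Igf1 was 55.3, 32.9 and 22.8 with ACs, 56.7, 87.1 and 80.0 with IFN-γ, 48.6, 27.8 and 22.9 with E. coli and 14.3, 22.0 and 27.6 with both. The IFN-γ libraries thus stood just above the ACs libraries, and those with both reached lower than either. The rise with IFN-γ was 1.06 on the log2 scale (adjusted p = 0.035), and the threshold was missed under 6 of 20 alternatives. These were the common upper quartile, the test of all genes above 0, and leaving out ACs library 2 or 3 or IFN-γ library 2 or 3, with an adjusted p up to 0.18. With E. coli the log2 fold change was -0.14 (adjusted p = 0.87) and with both it was -0.73 (adjusted p = 0.12).

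The receptor gene Igf1r fell with all 3 Type 1 stimuli. It was 985 ± 85.5 with ACs and fell to 414 ± 8.72 with E. coli, 303 ± 35.0 with IFN-γ and 334 ± 6.43 with both (log2 fold changes -1.25, -1.70 and -1.56, largest adjusted p = 1e-06), and its log2 fold change with IL-4 was 0.05. Irs2, an adaptor of insulin and IGF-1 receptors, fell with IFN-γ and with both (log2 fold changes -1.03 and -1.0). Of the 11 genes of the IGF system, 5 were tested for the Type 1 stimuli and 4 for IL-4, with which none passed. With IL-4 0.74% of all tested genes rose and 0.347% fell.

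Hbegf, a gene of chromosome 18, was highest in the IL-4 libraries. It was 56.8, 57.4 and 61.7 with IL-4 and 16.5, 5.45 and 10.7 with ACs, which is 98, 109 and 12 reads against 22, 7 and 2. The groups lay apart, and Hbegf rose 5.42-fold (log2 fold change 2.44, adjusted p = 0.031). The adjusted p was 0.0029 with edgeR and 0.00038 with DESeq2, and 0.083 when all 18 libraries were fitted together. It was 0.069 without the ACs library numbered 2 and 0.098 to 0.19 without any one of the IL-4 libraries. In the 12 libraries of the Type 1 experiment Hbegf ranged from 1.15 to 15.5, with 1 to 19 reads, and the highest value was in an ACs library. Areg had at most 3 reads in every library, with 0 reads in 10 of 18, so no difference between groups was detectable at this depth.

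The enzymes that release these ligands were measured more deeply. Among 13 genes of the EGF family, receptors and sheddases, the 3 tested in the Type 1 experiment were Adam10, Adam17 and Rhbdf2. All 3 rose with both stimuli, where 14.7% of all tested genes rose. Adam17, the main sheddase of EGF receptor ligands, was 179 ± 12 with ACs and rose to 283 ± 41.4 with IFN-γ and 380 ± 75.5 with both (log2 fold changes 0.65 and 1.07). Rhbdf2, which carries ADAM17 to the cell surface, rose with the same stimuli (log2 fold changes 0.74 and 1.47). With IL-4, where 0.74% of all tested genes rose and 0.347% fell, none of the 4 tested passed, Hbegf not being on this list.

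Thbs1 rose with every Type 1 stimulus. It was 821.3, 1311 and 846.5 with ACs, 2728, 2838 and 2481 with E. coli, 4158, 4017 and 4849 with IFN-γ, and 6906, 5904 and 8288 with both. The 4 groups did not overlap, and their order was ACs, E. coli, IFN-γ and both stimuli. Thbs1 rose 2.76-fold with E. coli (log2 fold change 1.47, adjusted p = 2.5e-06), 4.46-fold with IFN-γ (2.16, adjusted p = 4.6e-09) and 7.18-fold with both (2.84, adjusted p = 5.7e-11). With IL-4 it was 1273, 1176 and 848.1 against 1617, 1485 and 1630 with ACs, apart and lower in all 3 libraries, but the log2 fold change of -0.54 did not pass (adjusted p = 0.28).
Platelets are a classic store of thrombospondin-1. Of 5 platelet markers, Gp9 was at 0 in all 18 libraries and Gp1ba under 3 reads in 17, while Pf4 and Itga2b made up most of the summed count. That count was 2980 to 3720 with ACs, 3120 to 3740 with E. coli, 2160 to 2690 with IFN-γ and 1830 to 2200 with both, and 2850 to 3130 with ACs and 3750 to 5240 with IL-4. The part of platelet RNA in the level of Thbs1 was not tested.

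Fn1 followed another course, lower wherever E. coli was present. It was 270.0, 238.4 and 239.0 with ACs, 92.1, 76.0 and 95 with E. coli, 241.4, 280.8 and 174.4 with IFN-γ, and 88.4, 91.6 and 122.8 with both. Both groups with E. coli lay below both groups without it. Fn1 fell with E. coli (log2 fold change -1.5, adjusted p = 2.1e-05) and with both (log2 fold change -1.31, adjusted p = 2.4e-05), and with IFN-γ its log2 fold change was -0.13 (adjusted p = 0.68). With IL-4 it was 637.9, 544.8 and 1100 against 817.4, 1033 and 1356, and the log2 fold change of -0.53 did not pass (adjusted p = 0.56). Without both shallow libraries it was -0.64 (adjusted p = 0.012).
The summed macrophage markers were lower with E. coli and with both, as Fn1 was, but higher with IFN-γ, where Fn1 did not pass. Of the 12 markers, 6 fell with E. coli and 8 with both, 1 rose with both, and 4 rose and 1 fell with IFN-γ. Of all tested genes 5.25% fell with E. coli and 17.2% with both. The share that rose was 14.7% with both and 11.4% with IFN-γ, with which 9.96% fell. In the IL-4 experiment the 6 libraries stood in the same order by Fn1 as by the marker sum. Fn1 as a percentage of that sum, a measure chosen after the values were seen, was 1.14 to 1.37 with ACs in the Type 1 experiment, 0.855 to 0.924 with E. coli, 0.606 to 0.74 with IFN-γ and 0.906 to 1.17 with both. In the IL-4 experiment it was 3.08 to 3.38 with ACs and 2.65 to 3.08 with IL-4. Of 6 markers of mesothelial cells and fibroblasts, which also make fibronectin, Krt19 was at 0 and Msln under 3 reads in 17 libraries. Dcn was under 3 reads in 0 libraries, with a mean of 68.1 with ACs and 6.8 with both. Col3a1 and Col1a1 had means of 81.9 and 15.6 with ACs and 92.8 and 17.0 with IL-4 in the IL-4 experiment, and were below 1 in the Type 1 groups. The summed count of the 6 was 61 to 82.1 with ACs, 45 to 72.8 with E. coli, 24.6 to 43.6 with IFN-γ, 5.52 to 9.98 with both and 87.2 to 308 in the IL-4 experiment. Whether RNA of macrophages or of these cells had a part in the level of Fn1 or of any other member was not tested. In the libraries with both stimuli the marker sum was at most 10500, and Vegfa and Thbs1 were at their highest within the Type 1 experiment. The sum cannot tell fewer macrophages from less marker RNA per cell, and the part of macrophage RNA in these levels was not tested.

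**Figure D3:**
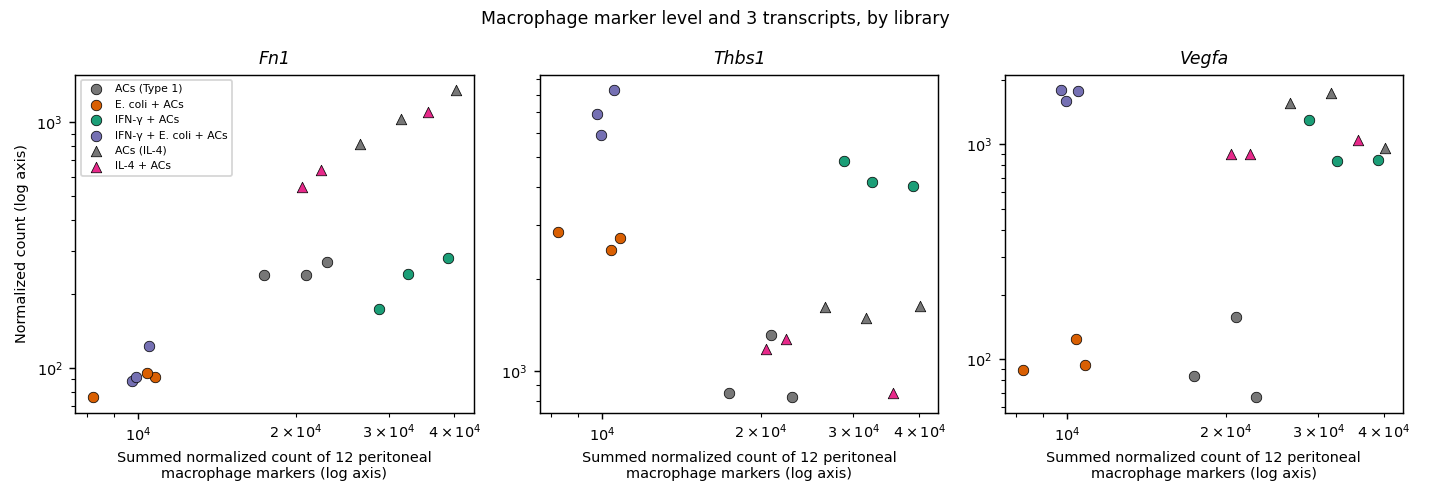
Normalized count of Fn1, Thbs1 and Vegfa (y axis, log) against the summed normalized count of 12 peritoneal macrophage markers (x axis, log), with a point per library, circles for the Type 1 experiment and triangles for the IL-4 experiment. Fn1 is lowest in the 6 libraries with E. coli, where the marker sum is 8230 to 10800, and Thbs1 is highest in 3 of those libraries.

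Among matrix proteins and their receptors, 12 of 18 genes were tested in the Type 1 experiment. With E. coli 2 rose and 3 fell, with IFN-γ 6 rose and 1 fell, and with both 4 rose and 2 fell. Of all tested genes 5.05%, 11.4% and 14.7% rose and 5.25%, 9.96% and 17.2% fell, in the same order. None of 13 passed with IL-4, where 0.74% of all tested genes rose and 0.347% fell. The syndecan gene Sdc4 was 323 to 385 with IL-4 against 118 to 197 with ACs. Its log2 fold change of 1.07 missed the threshold (adjusted p = 0.057). Tgm2, the transglutaminase that crosslinks fibronectin, rose from 1040 ± 161 to 8420 ± 963 with IFN-γ (log2 fold change 3.02, adjusted p = 2.3e-12) and to 3050 ± 98.1 with both. Itgb3, the β3 integrin subunit, fell with each Type 1 stimulus, from 453 ± 22.4 to 167 ± 23.7 with IFN-γ (log2 fold change -1.44), and its log2 fold change with IL-4 was 0.52, which did not pass. Cd36, a thrombospondin-1 receptor, was 144 ± 19.4 with ACs and fell to 49.0 ± 12.1 with E. coli and 25.1 ± 14.5 with both (log2 fold changes -1.56 and -2.64). Its log2 fold change with IFN-γ was 0.46, which did not pass.

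Anxa1 fell with every Type 1 stimulus to about the same level. It was 274.1, 294.7 and 234.1 with ACs, 56.9, 58.1 and 47.5 with E. coli, 67.3, 67.6 and 65.7 with IFN-γ, and 48.5, 39.1 and 77.3 with both. All 9 stimulated libraries lay below the 3 ACs libraries, as the summed B cell markers given above did, whose part in the level of Anxa1 or Igf1r was not tested, and the group with both overlapped each of the groups with 1 stimulus. The log2 fold changes were -2.28 with E. coli (adjusted p = 9.5e-07), -1.98 with IFN-γ (adjusted p = 1.9e-06) and -2.32 with both (adjusted p = 1.6e-07). With IL-4 Anxa1 was 273.5, 265.0 and 236.4 against 219.6, 250.7 and 257.4 with ACs, with overlap and a log2 fold change of 0.09 (adjusted p = 0.88).

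Anxa2 moved in opposite directions with the Type 1 stimuli given alone. It was 726.2, 803.3 and 592.9 with ACs, 359.1, 313.9 and 388.8 with E. coli, 1087, 1286 and 1045 with IFN-γ, and 715.6, 951.6 and 771.3 with both. The E. coli libraries lay below and the IFN-γ libraries above the ACs libraries, and the libraries with both overlapped ACs alone. Anxa2 fell with E. coli (log2 fold change -0.99, adjusted p = 8.5e-05), rose with IFN-γ (0.69, adjusted p = 0.0013) and did not pass with both (0.20, adjusted p = 0.29). Without the ACs library numbered 3 the rise with IFN-γ was 0.57 and no longer reached 1.5-fold. With IL-4 it was 3155, 2818 and 3670 against 3061, 3338 and 2997, a log2 fold change of 0.03 (adjusted p = 0.96).

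Around the annexins, 11 of 16 genes for annexins, S100 partners and annexin A1 receptors were tested for the Type 1 stimuli and 13 for IL-4. S100a10, whose product pairs with annexin A2, fell with E. coli and with both (log2 fold changes -0.93 and -0.92). S100a6 fell with IFN-γ, from 2260 ± 86.4 to 629 ± 82.3 (log2 fold change -1.85), and Anxa4 fell with E. coli (-0.86) and rose with IFN-γ (1.45). The formyl peptide receptor genes were the only genes of the list to pass with IL-4. Fpr1 rose with E. coli from 532 ± 171 to 2690 ± 506 (log2 fold change 2.37, adjusted p = 1.2e-07) and fell with IL-4 from 345 ± 82.6 to 67.7 ± 17.0 (-2.33, adjusted p = 0.0012). Fpr2 rose with all 3 Type 1 stimuli (log2 fold changes 0.88, 1.97 and 1.5) and fell with IL-4 from 496 ± 168 to 84.3 ± 35.4 (-2.57, adjusted p = 0.0044). The summed count of 7 neutrophil markers was 51.6 to 78.3 with ACs, 287 to 392 with E. coli, 65.3 to 140 with IFN-γ and 204 to 254 with both, and 43.6 to 75.1 with ACs and 113 to 162 with IL-4. Most of it was Cxcr2, at a mean of 332 with E. coli. Elane and Mpo were at 0 with E. coli, while Ly6g, Camp, Ngp and Ltf were low but higher than with ACs. Their means were 5.92, 4.24, 11.2 and 1.65 with E. coli, against 3.74, 0.313, 1.44 and 0.27 with ACs. With IFN-γ the mean of Ly6g was 21.6. The part of neutrophil RNA in the level of Fpr1, which neutrophils express strongly, was not tested. The ligand Anxa1 fell where Fpr2 rose, and did not pass with IL-4, where both receptor genes fell.

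**Figure D4:**
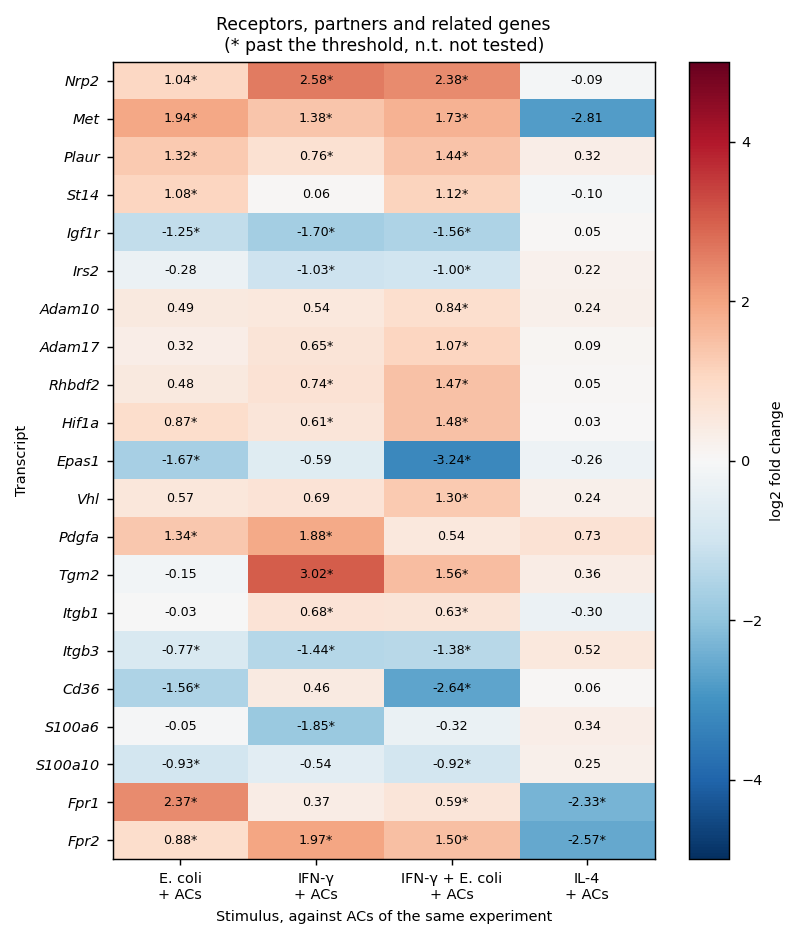
Log2 fold change of 21 receptor, partner and related genes named in the text or from the same lists (y axis) with each stimulus (x axis), with the value in each cell and an asterisk where it passed the threshold. Igf1r is below 0 and Plaur above 0 with every Type 1 stimulus, and only Fpr1 and Fpr2 carry an asterisk with IL-4.

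The 12 libraries of the Type 1 experiment allowed a test of whether the E. coli effect differed with and without IFN-γ. Of all tested genes 7.44% passed this test in either direction, and of the 8 members Anxa1 and Thbs1 did. For Anxa1 the difference was 1.95 on the log2 scale (adjusted p = 9e-04), as the log2 fold change with E. coli was -2.28 without IFN-γ and -0.34 in its presence. For Thbs1 it was -0.78 (adjusted p = 0.038), so that the combined rise was smaller than the sum of the single ones, but 10 of 12 fits with a library left out missed the threshold, with an adjusted p up to 0.11. It was also missed with edgeR (adjusted p = 0.052), with all genes above 0 (0.081) and with 18 libraries in 1 fit (0.063). For Igf1 it was -1.65 (adjusted p = 0.056), which passed with a pseudocount of 5 (0.047), DESeq2 (0.037), array weights (0.042), 18 libraries in 1 fit (0.044), and without ACs library 1 (0.029) or library 3 with both stimuli (0.037). The difference was, for Vegfa 0.73 (adjusted p = 0.2), for Anxa2 0.50 (adjusted p = 0.15) and for Fn1 0.32 (adjusted p = 0.54).

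**Figure D5:**
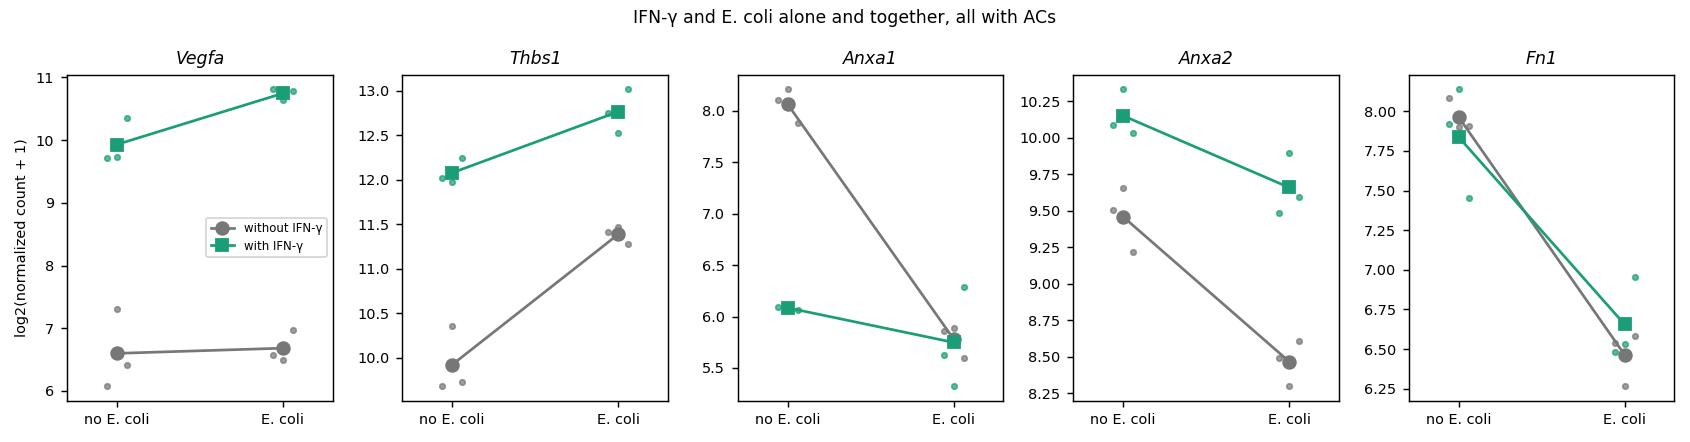
Log2(normalized count + 1) (y axis, which does not start at 0) of 5 members without and with E. coli (x axis), in grey without and in green with IFN-γ, with small points for libraries and large points joined by lines for group means. The lines of Anxa1 meet at the right, and those of Fn1 lie close together and fall from left to right.

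Whether the response to IL-4 differed from that to IFN-γ + E. coli was tested as a difference of differences over all 18 libraries, in which stimulus and experiment cannot be told apart. Of all tested genes 20.4% passed in either direction, and of the 9 members 6 did. This count includes Hbegf, which entered the test only through its IL-4 libraries, so it is not a fair match to that share. The IL-4 response was lower than the Type 1 response for Vegfa (-4.68, adjusted p = 5.3e-09) and Thbs1 (-3.38, adjusted p = 2e-09). It was higher for Anxa1 (2.41, adjusted p = 3e-06), Igf1 (2.11, adjusted p = 0.0023) and Hgf (1.40, adjusted p = 0.027), and the difference for Hbegf was 3.46. Hbegf was too low to be tested in the Type 1 experiment and reached a mean of 10 here only through its IL-4 libraries. Its mean was 58.6 with IL-4, 10.9 with ACs in that experiment and 3.56 to 9.67 in the Type 1 groups. Its value is therefore given as a description only. The call of Hgf was lost under 9 of 27 alternatives, among them leaving out any of 8 single libraries (adjusted p up to 0.074). Hbegf missed the threshold with all genes above 0, where no mean was required (adjusted p = 0.056), and without ACs library 3 of the Type 1 experiment. Fn1 (0.78, adjusted p = 0.098), Anxa2 (-0.17, adjusted p = 0.59) and Vegfb (-0.11, adjusted p = 0.92) did not pass.

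The starting levels of the 2 experiments differed for most of these factors. Between the ACs libraries of the IL-4 experiment and those of the Type 1 experiment 19.2% of all tested genes passed, and of the 9 members 5 did, all higher in the IL-4 experiment. Vegfa differed by 3.83 on the log2 scale (adjusted p = 3.4e-05), Anxa2 by 2.16 (adjusted p = 6.9e-06), Fn1 by 2.07 (adjusted p = 4.8e-05), Igf1 by 1.5 (adjusted p = 0.0097) and Thbs1 by 0.70 (adjusted p = 0.016), which was 0.58 or 0.60 and missed the threshold without Type 1 ACs library 1 or 3. For Vegfa this difference, 14.2-fold, was wider than its response to IFN-γ. Anxa1, in contrast, differed by -0.14 (adjusted p = 0.54), and its ACs ranges in both experiments overlapped. The experiments cannot be told apart from any batch, so levels are comparable only within each.

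For each member the transcripts with the most similar course were ranked by Pearson's r over the 18 libraries, after the mean of the ACs libraries of the same experiment was subtracted and among genes with a mean of at least 50. These points share groups and controls, so r mostly reflects differences between 6 groups and is given as a description. Closest to Vegfa were Gys1 (r = 0.991), Bnip3 (0.990) and Fam162a (0.981), and closest to Thbs1 were Fbxl5 (0.981), Ccrl2 (0.974) and Tmem189 (0.970). Fn1 ran closest to Serpinb6a (0.949) and Vsig4 (0.931), the latter one of the macrophage markers above. Anxa1 was closest to Snap47 (0.960), and S100a10 was also among its 3 closest (0.943), and Anxa2 to Vim (0.938). For Igf1, Hgf and Hbegf the highest values were 0.899 (Dab2), 0.898 (9130008F23Rik) and 0.881 (Gm44005), and for Vegfb 0.788 (Acer3).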

How the data were processed

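RNA of 18 mouse eosinophil libraries was sequenced. The deposited values are a signal for each gene, made by the authors from read counts with DESeq2 size factors (GRCm38). The submitters' notes name TopHat2 2.1.0, HTSeq 0.6.1 and DESeq2 1.26.0. The methods describe 2 pipelines, and the one behind the table is not given in the sources used here. Values were whole multiples of 1 step per library (100.0% within 0.1 of a whole read), so whole reads were recovered. Depth was 779421 to 7782072 reads (median 4461121), and 3 reads was taken as the floor.

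The tests used limma 3.58.1 under R 4.3.3 (lmFit and eBayes, trend on) on log2(value + 1) for genes with a mean of at least 10, on 12 libraries for the Type 1 experiment, 6 for IL-4 and for the ACs groups, and 18 for the difference of responses. The threshold was a Benjamini-Hochberg adjusted p under 0.05 over all genes tested and 1.5-fold. Alternatives were a pseudocount of 5, all genes above 0, a mean of at least 50, a replicate block, array weights, a common upper quartile, DESeq2 1.42.0, edgeR 4.0.16, 18 libraries in 1 fit and libraries left out. The fits were tested on simulated data. Genes with strongly related copies or overlapping neighbours could not be separated beyond the authors' counting.

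Members and lists were chosen with earlier results of these data known. Named were the 10 members, and of the lists, per comparison, the 3 genes that rose most and the 3 that fell most whose higher group averaged 50 or more, the 3 most similar transcripts per member, and others stated as named after their values were seen. Replicate numbers come from the sample descriptions. Positions are those of GENCODE for GRCm38, and promoter windows those of RefSeq, examined for 7 of 10 members. Python 3.11.15, numpy 2.4.6, pandas 2.3.3 and matplotlib 3.10.9 were used.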

Additional observations from a re-analysis of the deposited data

Results flagged for a closer look

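The effect of E. coli differed with and without IFN-γ, by a test of the interaction, for 2 members. For Anxa1 the effect was higher by 1.946 on the log2 scale in the presence of IFN-γ, and this held in all 12 fits with a library left out, with an adjusted p of 0.0002 to 0.0046 in limma. For Thbs1 the difference was -0.778, and it held in 2 of those 12 fits.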

How the results depend on the processing

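No member changed direction past the threshold under any alternative, and 1121 of the comparisons of a member with an alternative kept their side of it, while 44 lost a call and 22 gained one. In the interaction test, Anxa1 alone passed (1 member in place of 2) when all genes above 0 were tested and with edgeR. With libraries left out 1 to 3 members passed. Over all genes, 321 were higher and 435 lower in the main fit, 232 and 318 with all genes above 0, and 396 and 428 with edgeR. Fits with libraries left out gave 161 to 444 and 239 to 582. With IFN-γ, 3 to 5 members passed with libraries left out, while 1012 to 1183 of all genes rose and 734 to 1088 fell. With IL-4, 1 member (Igf1) passed with a mean of at least 50, where Hbegf was too low to be tested, and 4 passed with array weights. Without both libraries numbered 3, 5 passed (Igf1, Hbegf and Hgf higher, Vegfa and Fn1 lower), whereas leaving out single libraries gave 0 to 4. Over all genes with IL-4, 79 rose and 37 fell in the main fit (10669 tested), and 72 and 38 with a mean of at least 50 (6960 tested). Array weights gave 389 and 356 of all genes, and the fit without both libraries numbered 3 gave 345 and 311 (10629 tested). Leaving out single libraries gave 31 to 95 and 16 to 51. With the replicate block 1 member, Igf1, passed with IL-4 (adjusted p = 0.039), as Hbegf was lost (adjusted p = 0.087). Residuals of libraries with the same number had a mean r of 0.005 in the Type 1 and 0.01 in the IL-4 experiment, over 18 and 3 pairs. A mean over all tested genes cannot show whether the numbers pair libraries. The block took no other member's call. Leaving out a library reduces the samples fitted, and the cause of the other changes was not tested. Low depth limits Areg, Hbegf and Vegfb most.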
